A study of Setaria italica with 6 samples.

Results

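In spikelets of the foxtail millet (Setaria italica) mutant Siysl1, 109 annotated genes gave no count in any library although every wild-type library held them. They were chosen by their counts: an annotated identifier outside chromosome 8, 0 counts in each of the 3 Siysl1 libraries, and at least 10 counts in each of the 3 libraries of the wild type (WT). They are 109 of the 36886 genes in the table, of 32049 annotated genes outside chromosome 8, and of the 21268 of these that reached the WT minimum, which is 0.513% of the last group. Because the measured counts set the membership, the difference between genotypes in these genes is a description and carries no test.

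The WT is the line Yugu1, and both genotypes were sampled as spikelets 3 days after flowering, from plants kept in a greenhouse at 30 °C with 14 h of light. The series' design text gives separate individuals as the replicates of each genotype, 3 per genotype. No source used here states what kind of lesion Siysl1 carries, how many lines were used or what else separates it from Yugu1. The genotype field names the SiYSL1 mutant for Siysl1 replicate 1, the SiYSL2 mutant for replicate 2 and the SiYSL3 mutant for replicate 3, while the titles call all of them Siysl1, and the titles were followed. Of the 109 members, 108 passed the expression filter of the test used below for their neighbours, each through its WT counts. Correlations of log2 CPM over all tested genes were 0.9895 to 0.9927 within a genotype and 0.9230 to 0.9259 between genotypes. No source used here pairs the identifiers with gene names, so neither SiYSL1 nor markers of spikelet tissues could be looked up, and no member has a known function here.

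Yellow stripe-like (YSL) proteins, the family after which the mutant is named, are membrane transporters that move metals, iron among them, in complex with chelators such as nicotianamine, and in grasses they take part in iron uptake by roots and in its movement to the grain. A transcript that is present in one line and undetected in another of the same species is a common finding in grasses, where genes can be missing, disrupted, too diverged in sequence for reads to align, or present and not transcribed. Counts of RNA alone do not separate these states. In spikelets, which hold many tissues, a transcript made by fewer cells and one made at a lower level per cell cannot be told apart either.

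The members were mostly weak genes. Their mean WT count ran from 11.3 to 816, with a median of 30.3, and 67 of them had fewer than 30 counts in at least 1 WT library. Per gene length and library size, as FPKM, their WT mean ran from 0.151 to 20.4 with a median of 0.855, against a median of 11.7 over the genes past the WT minimum. That median lies at percentile 7.38 of those genes. Only 47 of the 109 reached 1 FPKM, compared with 91.1% of the genes past the WT minimum, and 5 reached 5 FPKM. A weak gene reaches 0 counts more easily, so this lean to low levels is partly set by the rule. Together the members held 5892, 5665 and 5926 counts in WT replicates 1, 2 and 3, or 0.0183%, 0.0187% and 0.0190% of each library, and 0 counts in each Siysl1 library.

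**Figure D1:**
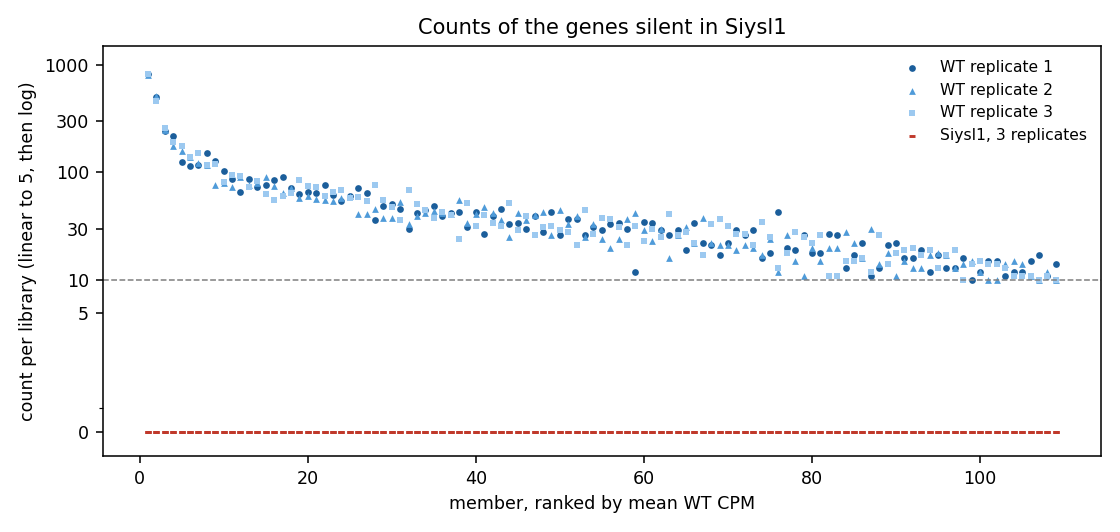
Counts of the 109 members in each library (y, linear to 5 and log above), ordered by mean WT CPM (x). Blue symbols are the 3 WT libraries, red dashes at 0 are the 3 Siysl1 libraries, and the dashed line is the WT minimum of 10 counts; the highest member lies above 800 counts and 67 have a WT count under 30.

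Seita.3G022700.v2.2, gene 227 of 4096 in identifier order on chromosome 3, was the most abundant member by counts scaled to library size (CPM). It had 820, 805 and 822 counts in the WT libraries, 27.0 ± 0.57 CPM (SD, n = 3) and 18.5 ± 0.37 FPKM, and 0 counts in each Siysl1 library. The WT libraries lay close together. With a floor of 3 counts for each library, taken as the upper limit for a count of 0, its level was at least 296-fold lower in Siysl1. Small counts in these tables came mostly as 2 or more: 218 to 247 genes of a library had a count of 1, but 826 to 915 had a count of 2. With a floor of 6 counts per library, added after this was seen, the bound for this gene was 148-fold.

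Seita.9G288000.v2.2, gene 2880 of 5813 on chromosome 9, was the most abundant per length. It had 245, 249 and 261 counts and 20.4 ± 0.995 FPKM in WT, and at least 91.4-fold less in Siysl1 with the floor of 3 counts, which all bounds below use. Its next neighbour, gene 2881, was also a member, at rank 4 by FPKM, with 151, 118 and 118 counts and 7.58 ± 0.92 FPKM. Both genes of the pair are short, with implied lengths of 0.297 and 0.409 of the median gene. On chromosome 2, gene 3672 of 4455 had 499, 517 and 460 counts, or 5.93 ± 0.43 FPKM, and was at least 179-fold lower. On the same chromosome gene 4175 had 125, 158 and 176 counts, or 9.05 ± 1.67 FPKM, and was at least 55.7-fold lower. The member at rank 4 by CPM, gene 2003 on chromosome 3, had 218, 176 and 191 counts and 3.25 FPKM. These 6 were the members that stood among the first 5 by either scale, and none of their WT libraries fell under 100 counts. Over all members the fold bound ran from 4.10 to 296 with a median of 11, and in 31 of them it reached 16 (9 with the floor of 6 counts).

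At the other side of the range, 6 members had a WT count of exactly 10 in their weakest library. The lowest of these by CPM, gene 2477 on chromosome 3, had 14, 10 and 10 counts, and its bound was at least 4.10-fold. Gene 1489 on chromosome 6 had 17, 10 and 10 counts, and gene 2095 on chromosome 1 and gene 211 on chromosome 6 each had 15, 10 and 14. Just outside the rule stood 12 genes silent in Siysl1 whose weakest WT library held 9 counts, such as gene 1922 on chromosome 5 with 9, 10 and 9. Members and these genes differ by 1 count, so the border is one of the rule and not of the data. With any smaller WT count allowed, as long as each WT library held at least 1, another 204 annotated genes outside chromosome 8 were silent in all Siysl1 libraries.

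The summed Siysl1 counts of the genes past the WT minimum are given as a description, since the rule used them. Of the genes past the WT minimum, 109 had a summed Siysl1 count of 0, 3 had 1, 22 had 2, 10 had 3 and 25 had 4. Counts of 1 were rare in every library, as given above, so few genes can stand directly beside the value 0. The 3 genes with a summed count of 1 were gene 4939 on chromosome 9, with 71, 47 and 79 counts in WT, gene 29 on chromosome 1, with 24, 32 and 21, and gene 746 on chromosome 5, with 11, 10 and 17. The sums 1 to 12 together held 158 genes. Among genes with at least 100 counts in each WT library, 8 had a sum of 0, and 8 had a sum of 1 to 12.

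With the genotypes exchanged the same rule found fewer genes. Both directions admit annotated identifiers only, and the 2302 loci of the table outside the annotation enter neither. Since the genome build is not stated, whether the annotation favours genes of either genotype is not known here. Of 21512 genes with at least 10 counts in each Siysl1 library, 25 had 0 counts in all WT libraries, which is 0.116%. In that direction 2 genes had a summed WT count of 1, 10 had 2, 3 had 3, 15 had 4 and 19 had 6. The sums 1 to 12 together held 157 genes, against 158 for the genes past the WT minimum. The count of 25 depends on the WT libraries and was 46 without WT replicate 2 and 39 without WT replicate 3, whereas the count of 109 moved to between 123 and 140 when any 1 library was left out. The highest of these genes was Seita.2G107000.v2.2 on chromosome 2, whose Siysl1 libraries held 128, 201 and 171 counts, at least 50.8-fold more than the floor in WT. The next was Seita.3G275600.v2.2 on chromosome 3, with 100, 137 and 122 counts, at least 36.5-fold higher. No such gene lay directly beside a member: the closest was 7 genes away, on chromosome 4, and the next was 18 genes away, on chromosome 9.

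**Figure D2:**
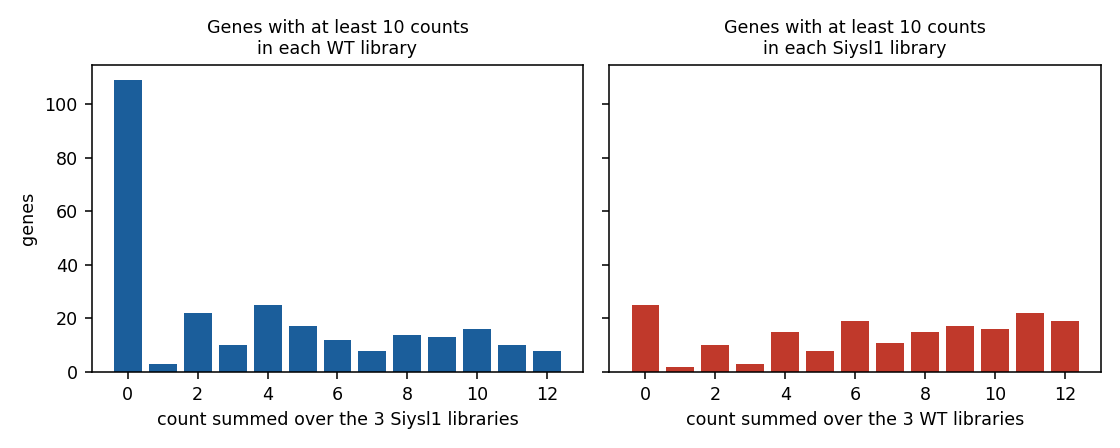
Number of annotated genes outside chromosome 8 (y) by their count summed over the 3 libraries of the other genotype (x, 0 to 12). Left, genes with at least 10 counts in each WT library, where the bar at 0 holds the 109 members; right, genes with at least 10 counts in each Siysl1 library, where the bar at 0 holds 25 genes.

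The rule asks for at least 10 counts in each WT library, so no member could rest on 1 of them. Of the 109 members, 36 had their highest CPM in WT replicate 1, 35 in replicate 2 and 38 in replicate 3, and their summed level was 190, 193 and 197 CPM. The spread between WT replicates was set beside that of other genes of like strength. For a mean WT count of 10 to 30, the median coefficient of variation was 21.7% in 53 members and 22.1% in 1600 genes past the WT minimum. For 30 to 100 counts it was 17.1% in 47 members and 15.9% in 3155 genes. Counting alone would give the members 22.9% and 15.1%. In the 9 members with 100 to 1000 counts it was 12.1%, against 7.06% in 9675 genes, whose counts lie higher within that range so that counting alone gives them 5.24%, and the members 8.08%. In 15 members the highest WT count was more than 2 times the lowest.

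Members covered a wide range of lengths. Length was taken from the ratio of count to FPKM in WT, relative to the median of the genes past the WT minimum. The members' median was 0.956, their middle range 0.572 to 1.46, and 58 were shorter and 51 longer than the median gene. Weak genes were shorter in general, so lengths were also set side by side by strength. For 10 to 30 counts the medians were 0.700 in members and 0.713 in genes past the WT minimum, and for 30 to 100 counts 0.992 and 0.848. In the 9 members of 100 to 1000 counts the median was 1.44, against 0.935 in 9675 genes. These 9 ran from 0.297 to 2.00, with a lower quartile of 0.409. Strength here is a raw count, not scaled for length. By FPKM the 5 highest members had lengths of 0.297, 1.06, 0.408, 0.409 and 2.00.

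Members lay on all 8 numbered chromosomes that the rule admits and on unplaced sequence. Chromosome 9 held 19, chromosome 3 held 18, chromosome 5 held 16, chromosome 2 held 15, chromosome 4 held 14, chromosome 6 held 11, chromosome 7 held 7 and chromosome 1 held 5. As a share of the genes past the WT minimum, chromosome 4 was highest among these at 0.759% and chromosome 1 lowest at 0.190%. The other 4 members were on unplaced sequence, where 114 genes passed the WT minimum, or 3.51%. These shares rest on few genes and were not tested. Unplaced identifiers have no order along a chromosome and enter nothing below, which leaves 105 members with a place.

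**Figure D3:**
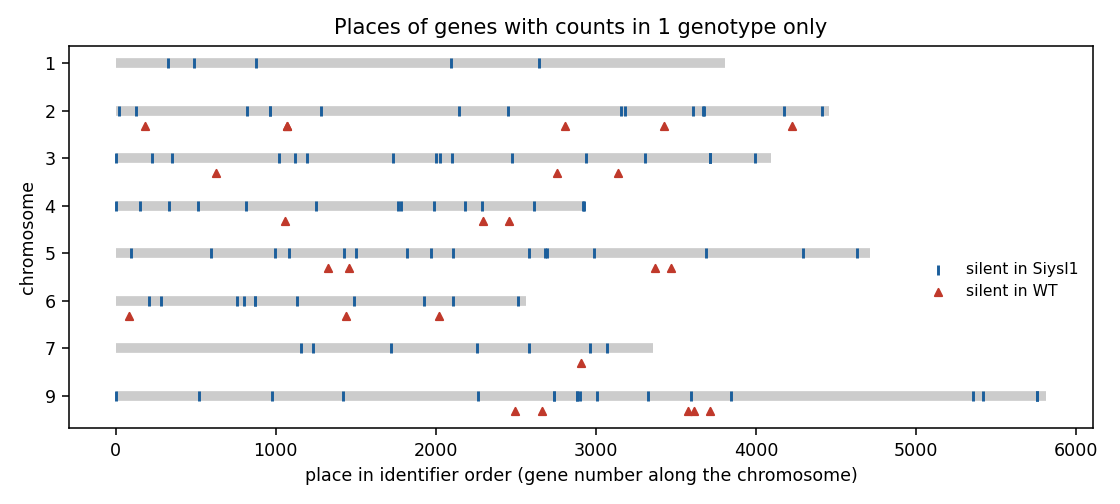
Places of the members (blue ticks) and of the genes silent in WT (red triangles) along the 8 chromosomes, as gene number in identifier order (x); grey bars span the genes of each chromosome (y). Members occur along every chromosome, from 5 on chromosome 1 to 19 on chromosome 9, and 3 sit at the first gene of chromosomes 3, 4 and 9.

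Several members stood at the ends of chromosomes in identifier order, a pattern noticed after their places were seen. The first gene of chromosome 3 was a member with 36, 46 and 76 counts in WT. Its second gene, under the minimum with 5, 6 and 5 counts, was silent in Siysl1 too. The third gene had no count in any library, and the fourth had 2, 3 and 4 counts in WT and none in Siysl1. The first gene of chromosome 4 was a member with 13, 13 and 19 counts, and the second had 9, 7 and 10 counts in WT and none in Siysl1. The first gene of chromosome 9 was a member with 30, 37 and 21 counts, while the second had 103, 130 and 106 counts in WT and 103, 153 and 104 in Siysl1. So on chromosomes 3 and 4 the second gene had no Siysl1 count either, but it held at most 10 counts in a WT library. On chromosome 9 the second gene was present in both genotypes. Of the 16 outermost genes of the 8 chromosomes 7 passed the WT minimum, and these 3 members are among the 7. At the last genes of chromosome 4, members were genes 2922 and 2923 of 2925, with 26, 16 and 41 counts and 72, 72 and 65 counts. Gene 2924 had 5, 3 and 5 counts in WT and none in Siysl1, and gene 2925 had none in any library. Within 10 genes of an end 5 of 100 genes past the WT minimum were members, or 5%, against 0.475% of those farther in. Within 100 genes of an end the share was 1.09% against 0.461%.

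Some members followed each other directly. There were 6 runs, which held 14 members, 5 runs of 2 and 1 run of 4. The run of 4 was on chromosome 3, genes 3711 to 3714. Its WT counts were 22, 38 and 17 in gene 3711, 34, 24 and 31 in gene 3712, 39, 42 and 43 in gene 3713, and 49, 44 and 38 in gene 3714. Their levels per length lay close together, at 1.08, 1.25, 1.74 and 1.84 FPKM. So did their implied lengths, at 0.580, 0.572, 0.571 and 0.570 of the median gene. Whether they are near-identical copies that share reads was not tested. On one side the next gene, 3710, had 130, 119 and 102 counts in WT and 193, 154 and 165 in Siysl1, a rise of 0.42 ± 0.15 on the log2 scale (SE; edgeR adjusted p = 0.0249). On the other side gene 3715 had 1 count in WT replicate 1 and none elsewhere, gene 3716 had none at all, and gene 3717 was present in both genotypes. Genes expressed in both genotypes thus lay within 3 places of the run on either side. Around the pair on chromosome 9, gene 2879 had no count in any library and gene 2878 had 1706, 1677 and 1619 counts in WT and 269, 316 and 359 in Siysl1. On the other side gene 2882 rose from 10.8 ± 1.14 to 22.0 ± 1.80 CPM (log2 fold change 1.03 ± 0.10, edgeR adjusted p = 1.46e-07).

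A member can also sit in a stretch of genes of which each is silent in Siysl1 but only some are strong enough in WT to be members. Extended in this way to the nearest gene with a Siysl1 count on each side, the 105 members fell into 96 stretches. Of these, 52 were 1 gene long, among them the first gene of chromosome 9. Any Siysl1 count ended a stretch, and some of the genes that did so had only a few counts. In 23 stretches at least 2 genes had WT counts, and over all stretches 29 genes that were no members did. The most genes with WT counts in a stretch was 5, reached in 3 stretches, the run of 4 with its neighbour, one on chromosome 3 that spans genes 3990 to 3998, and one on chromosome 6. The neighbour of the run of 4 held 1 WT count, and in genes 3990 to 3998 the member at place 3991 had 103, 80 and 81 counts while no other gene had more than 4 in a WT library. Such genes are too weak for their silence in Siysl1 to be read. On chromosome 6 genes 868 to 872 had between 5 and 15 counts in every WT library and 0 in every Siysl1 library, and genes 869 and 871 were the members among them, with 12, 15 and 11 and with 12, 14 and 11 counts. Gene 873, next to it, had 2043, 2062 and 2077 counts in WT and 1292, 1889 and 1918 in Siysl1. On the same chromosome genes 282 to 285 were silent in Siysl1, of which gene 284 was a member, with 15, 11 and 11 counts. Neighbours with like counts can be near-identical copies that share reads, and whether these are was not tested.

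**Figure D4:**
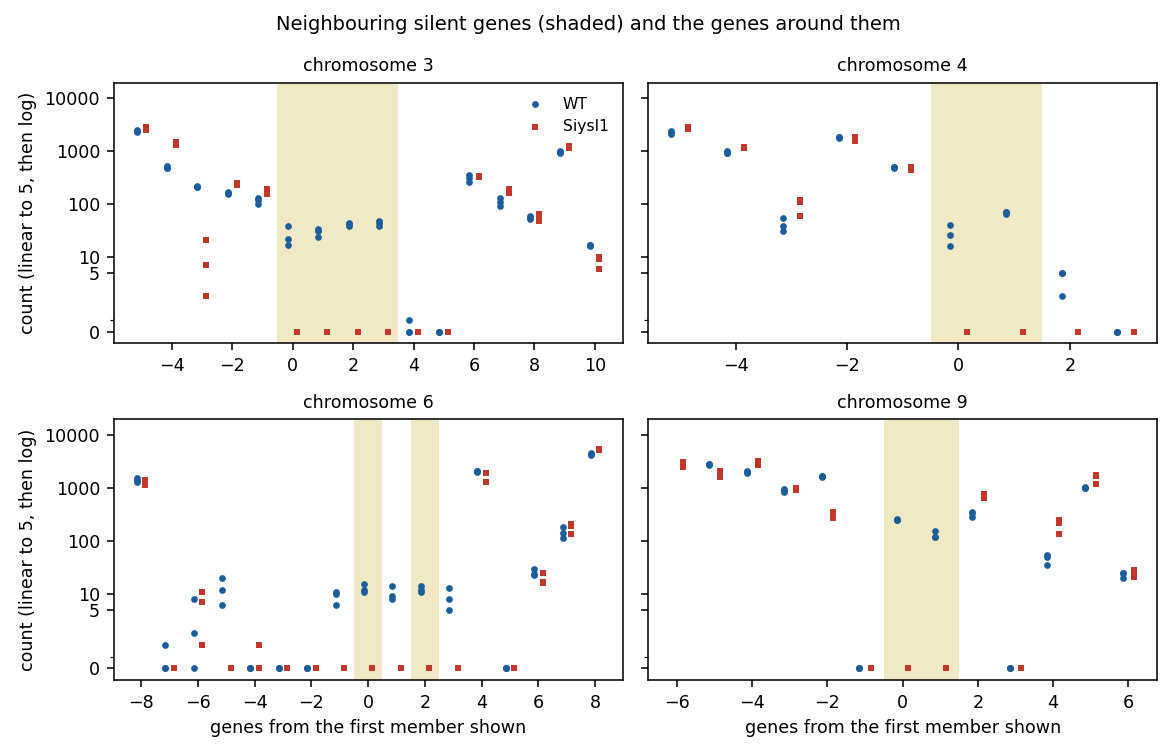
Counts per library (y, linear to 5 and log above) of members that lie next to or near each other (shaded) and of the genes around them in identifier order (x, genes from the first member shown), for chromosomes 3, 4, 6 and 9. Blue circles are the 3 WT and red squares the 3 Siysl1 libraries. Inside the shading Siysl1 is at 0, and strongly expressed genes of both genotypes lie within a few genes of the shaded members. On chromosome 9 the WT counts of gene 2874 (58955, 56901 and 60322) lie above the axis, so only its Siysl1 counts (2481, 3160 and 2955) show.

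Directly beside the members lay 190 other genes, of which 48 had WT counts but did not reach the minimum. Of these 48, 20 had no Siysl1 count (41.7%), against 1122 of 5297 such genes elsewhere on the 8 chromosomes (21.2%). By summed WT count, 8 of 12 beside members and 707 of 1773 elsewhere (39.9%) were silent at 1 to 5 counts, and 3 of 14 and 282 of 1503 (18.8%) at 6 to 14. At 15 to 29 counts the values were 7 of 15 and 90 of 1282 (7.02%), and at 30 to 60 counts 2 of 7 and 41 of 716 (5.73%). Of the 9 silent neighbours with 15 to 60 counts, 5 lie on chromosome 6, in the stretches at genes 282 to 285 and 868 to 872. Chromosomes 2, 3 and 4 hold 1, 2 and 1 of them. At 6 to 14 counts the shares were close, and the groups beside members are small. These ranges were set after the data were seen, and no test was made. At 2 to 5 places from the nearest member 29 of 132 such genes were silent (22.0%), near the value elsewhere. Genes with no WT count at all made up 16.8% of those beside members and 16.5% of the others.

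The stronger flanking genes could be tested, with a limit set by the rule: a neighbour past the WT minimum with no Siysl1 count is itself a member and is not among them. Of the 190, 117 passed the expression filter. In edgeR's test 39 were lower in Siysl1 (33.3%) and 35 higher (29.9%) at an adjusted p under 0.05, beside 28.7% lower and 29.9% higher of all 25117 genes tested. The share higher equals that of the whole table and the share lower is a few points above it. With no scaling factor, which shifts the median log2 fold change of all genes by 0.10, 30 flanking genes were lower and 38 higher, beside 22.2% lower and 36.9% higher of all genes. At least 2-fold changes were 14 lower (12%) and 11 higher (9.40%), where all genes tested gave 7.61% and 10.9%. At least 4-fold changes were 9 lower (7.69%) and 2 higher (1.71%), beside 2.98% and 3.00% of all genes tested. The tested genes include 108 members, and without members the shares at least 2-fold and 4-fold lower were 7.21% and 2.56%. The large falls beside members are few genes, and their count moved with the genes tested and the scale. At least 2-fold lower were 27 of 162 in edgeR without the filter (16.7%, beside 7.41% of all genes). DESeq2 gave 27 of 162 (16.7%, beside 6.76%). Limma on log2 FPKM gave 7 of 101 (6.93%, beside 3.86% with 1 added to FPKM and 5.01% with 0.1). With no FPKM filter limma gave 9 of 162 (5.56%, beside 2.89%). At 2 to 5 places from a member 5.04% were at least 2-fold lower and 11.9% higher. Single distances varied: at 10 places 8.20% were at least 2-fold lower, and at 3 places 23 of 114 genes (20.2%) were at least 2-fold higher. No difference between distances was tested.

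**Figure D5:**
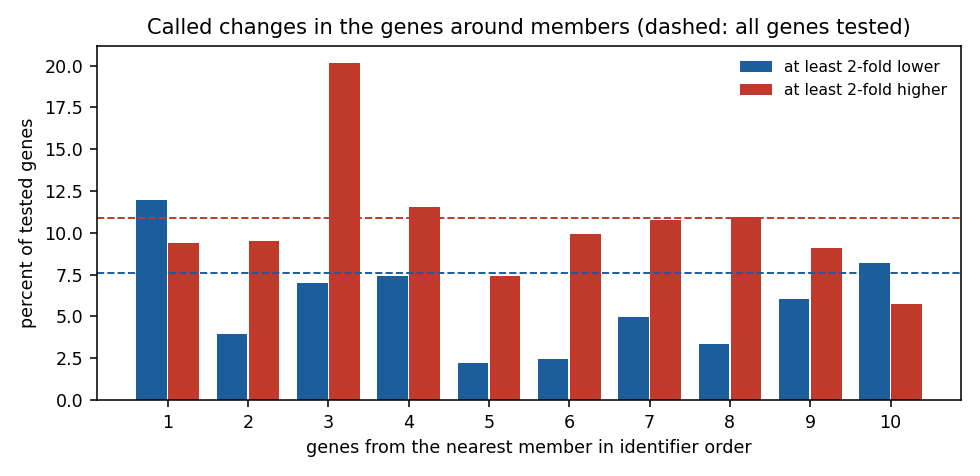
Share of tested genes called at least 2-fold lower (blue) or higher (red) in Siysl1 (y, percent) by distance from the nearest member in identifier order (x, genes). Dashed lines are the shares of all genes tested, 7.61% lower and 10.9% higher; directly beside members 12% were lower and 9.40% higher.

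The largest fall among called flanking genes of at least 5 CPM in the genotype with the higher level was next to one of the strongest members. Gene 3671 on chromosome 2, beside the member at place 3672, had 949, 919 and 979 counts in WT and 6, 6 and 16 in Siysl1. Its level fell from 31.5 ± 1.03 to 0.284 ± 0.175 CPM, a log2 fold change of -6.77 ± 0.17 (edgeR adjusted p = 3.61e-14). The gene on the member's other side, 3673, had at most 2 counts in any library. Gene 330 on chromosome 1 stood beside a weak member, which had 20, 26 and 18 counts in WT. It fell from 76.5 ± 1.18 to 7.44 ± 0.29 CPM (log2 fold change -3.36 ± 0.06, edgeR adjusted p = 1.68e-15). Gene 332 on chromosome 4 had 179, 149 and 148 counts in WT against 19, 30 and 37 in the mutant, a log2 fold change of -2.59 ± 0.21 (edgeR adjusted p = 2.82e-08). Its neighbour, the member at place 331, had 73, 79 and 83 counts. These 3 flanking genes were chosen for the size of their falls, and each stayed detected in every Siysl1 library. Some called flanking genes under 5 CPM fell further than gene 330, and not all of those stayed detected. Gene 801 on chromosome 6 had 82, 63 and 92 counts in WT and 4, 0 and 0 in Siysl1 (log2 fold change -5.88). Gene 1284 on chromosome 2 had 65, 45 and 44 against 3, 0 and 4 (-4.50). Gene 1251 on chromosome 4 (-4.92) and gene 1490 on chromosome 6 (-3.83) had counts in every Siysl1 library.

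Flanking genes also rose. Gene 1734 on chromosome 3 had 112, 148 and 133 counts in WT and 537, 639 and 651 in Siysl1, a log2 fold change of 2.09 ± 0.12 (edgeR adjusted p = 5.11e-10), beside a member with 11, 30 and 12 counts. Gene 2679 on chromosome 5 rose from 2.69 ± 0.21 to 7.71 ± 0.20 CPM (log2 fold change 1.52 ± 0.13, edgeR adjusted p = 6.36e-08). Gene 757 on chromosome 6 rose from 1.98 ± 0.50 to 5.59 ± 0.48 CPM (log2 fold change 1.5 ± 0.18, edgeR adjusted p = 3.14e-06). Silent genes thus lay directly beside genes with a higher level in Siysl1. The strand setting of the counting is not stated, so genes that overlap may share reads.

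For 39 members the genes on both sides were tested. In 26 of these neither side changed by 2-fold or more, in 7 exactly 1 side was at least 2-fold lower, in 6 at least 1 side was at least 2-fold higher, and in 1 both sides were lower; a member with 1 side lower and 1 higher counts under both. With an adjusted p under 0.05 and no limit of size, 4 of the 39 had neither side called. At that threshold 28.7% of all genes tested were called lower and 29.9% higher, so most pairs hold a called gene in any case. Over all genes tested 7.61% were at least 2-fold lower and 10.9% higher, and nothing is read from these counts of pairs. The member with both sides lower, chosen for this, was at place 4175 on chromosome 2, at rank 3 by FPKM. On one side of it gene 4174 had 16, 23 and 11 counts in WT and 4, 4 and 4 in Siysl1, and on the other gene 4176 had 21, 19 and 27 in WT and 2, 4 and 3 in Siysl1.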

How the data were processed

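RNA of foxtail millet spikelets was sequenced in 3 WT and 3 Siysl1 libraries, and libraries were grouped by their titles. The authors deposited a table of raw counts and a table of FPKM, the latter named so by the authors; no source used here states the aligner, counting tool, strand setting or genome build. Library totals lay between 30368325 and 32691355 counts, and no row lacked a gene. The members and all lists were chosen with earlier results of these data known. Members were found from the deposited counts, lengths from counts divided by FPKM, and places from the serial numbers in the identifiers. Of the 36886 identifiers 0 were found in the RefSeq gene table, so lists of named genes could not be used. Flanking genes were tested with edgeR 4.0.16 in R 4.3.3 (quasi-likelihood F test, TMM scaling, filterByExpr, Benjamini-Hochberg adjustment over all 25117 genes tested, threshold 0.05). The test was checked on simulated data. CPM were computed with TMM library sizes. Alternatives used DESeq2 1.42.0 and limma 3.58.1. Genes described in full were the 5 members highest by CPM and by FPKM, those in runs of 3 or more, the 3 weakest, the genes beside them, and the 3 largest falls and rises among called flanking genes whose level reached 5 CPM in whichever genotype was higher. Other genes given were chosen after their values were seen. Floors and counts cover counting error only.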

Additional observations from a re-analysis of the deposited data

How the results depend on the processing

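The number of members follows the limits of the rule: 178 and 42 at WT minimums of 5 and 30 counts, 176 with up to 3 counts in each Siysl1 library, 189 by FPKM (0 against at least 0.1) and 186 with Siysl1 replicate 1 alone, which include all 109 except at the minimum of 30, where 42 are shared. Leaving out 1 library gave 123 to 140. Most of these moves are fixed by the definition. The genes silent in WT were 47, 8, 56 and 77 under the same first 4 limits, 40 with up to 3 summed counts and 27 to 46 without 1 library. Members in runs were 26, 6 and 29 at minimums of 5 and 30 counts and by FPKM, and 14 to 16 without 1 library. Flanking genes at least 2-fold lower were 27 with DESeq2 and 27 without the filter, both over the 162 with any count, 7 of 101 by limma on log2(FPKM + 1) or log2(FPKM + 0.1), 9 of 162 with no FPKM filter, 39 of 613 within 5 genes and 15 to 18 without 1 library. Over all genes these fits gave 6.76%, 7.41%, 3.86%, 5.01% and 2.89%. No scaling factor gave 30 flanking genes lower and 38 higher, with 22.2% and 36.9% of all genes. The median relative length was 0.964 in WT replicate 3 alone and 1.04 in the 25 members with at least 50 counts. The median level was 0.819 to 0.890 FPKM without 1 WT library, or 1.00 as CPM. Libraries with the same replicate number correlated weakly between genotypes (r = 0.0633, 0.0672 and 0.0436), under the limit of 0.1 set for pairing, so the main fit had no replicate block. Yet each library correlated best with its own number, and whether the numbers carry a shared effect was not tested. With a replicate block 40 flanking genes were lower and 36 higher, 14 and 11 of them by 2-fold. The 6 flanking genes given in full kept direction and call in all 15 other fits (highest adjusted p = 0.000134; edgeR, DESeq2 and limma). Depth limits weak genes, since a gene with an expected count of up to 3 in a library can still give a count of 0.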

Other observations

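Some genes past the WT minimum had counts in a single Siysl1 library. There were 31 with counts only in replicate 1, 22 only in replicate 2 and 14 only in replicate 3. The median count there was 3, 4 and 4, and the highest were 27, 10 and 7. Replicate 1 is the only library whose genotype field names SiYSL1. With a single library per name, any link to that field cannot be told from variation between libraries. No test was made of these numbers, and counts this low are near the limit of detection.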
